A study of Mus musculus with 2 samples.

Results

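The Ifi200 genes are mouse members of the PYHIN family, whose proteins join a pyrin domain, which binds other pyrin domains, to a HIN domain, which binds DNA. They are named for their induction by interferon, sense DNA in the cytosol or nucleus of myeloid cells, and also act on transcription, cell growth and differentiation. Described here are Ifi203, Ifi204, Ifi205, Ifi207, Ifi211 and Mndal, 6 of the 34714 genes in the deposited table, chosen by name as listed genes of the PYHIN cluster. The related inflammasome sensor Aim2 is not among the 6. Bone marrow-derived macrophages of C57BL/6 mice had been treated for 24 h with the anti-CD40 monoclonal antibody FGK45, which activates the receptor CD40, or with IgG as its control. Marrow cells of both cultures had received macrophage colony-stimulating factor at 20 ng/mL, and each group held 1 library. The sources used here do not give the age, sex or number of the mice. No difference between the libraries has a replicate check, so no test or p-value is given.

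All 6 genes lie on chromosome 1 (GRCm38) on the minus strand, within 308 kb at chr1:173723424-174031755. In order of coordinate they run Ifi207 (chr1:173723424-173741831), Ifi204 (chr1:173747293-173767069), Mndal (chr1:173857215-173880382), Ifi211 (chr1:173896339-173913087), Ifi203 (chr1:173920400-173942866) and Ifi205 (chr1:174011998-174031755).

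Sequence at the starts of these genes is shown first because it was not used to choose them. RefSeq promoter windows (GRCm38.p6, from 250 bases before to 50 bases after a start) were found for 5 of the 6: Ifi203, Ifi205, Ifi207, Ifi211 and Mndal. All 5 held the core of the interferon-stimulated response element, searched on both strands as GAAA, any 2 bases and GAAA again. For comparison, 3.99% of the 27025 genes with such windows and 3.44% of the 32851 windows held it. The windows of these neighbouring genes are partly alike, as given below, so the 5 are not separate cases beside those shares. The lines below give 60 bases around the forward match, 5′ to 3′ on the minus strand, with the match in capitals.
Ifi207: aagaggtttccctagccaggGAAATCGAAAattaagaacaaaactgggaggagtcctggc
Ifi205: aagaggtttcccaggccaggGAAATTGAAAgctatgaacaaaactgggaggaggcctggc
Ifi211: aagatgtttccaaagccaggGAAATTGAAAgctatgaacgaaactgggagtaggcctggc
Ifi203: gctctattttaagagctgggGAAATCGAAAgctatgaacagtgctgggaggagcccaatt
Mndal: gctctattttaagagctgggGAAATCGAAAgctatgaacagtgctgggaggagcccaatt

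These stretches are at chr1:173741811-173741870 for Ifi207, chr1:174031850-174031909 for Ifi205, chr1:173913044-173913103 for Ifi211, chr1:173942488-173942547 for Ifi203 and chr1:173880184-173880243 for Mndal. The 60 bases of Ifi203 and Mndal did not differ at any position, and their whole windows were 94.3% identical in local alignment. Ifi205, Ifi207 and Ifi211 formed a second type, with 5 differing bases between Ifi205 and Ifi211, 7 between Ifi205 and Ifi207, and 10 between Ifi207 and Ifi211. Between the 2 types, 21 to 23 of the 60 bases differed. The forward match began 41 bases before the start of its window's transcript in Ifi207, 37 in Ifi211, 36 in Mndal, 35 in Ifi203 and 134 in Ifi205. That start need not be the outer end of the gene coordinates given above. In Ifi203, Mndal and Ifi211 the match lies inside those coordinates. Ifi205 and a second annotated start of Mndal each held a further match on the opposite strand, while a second annotated start of Ifi203 held none. None of the 5 genes held the GAS motif, TTCNNNGAA, which 9.55% of genes held. Such matches describe letters in these windows and are not evidence of binding.

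The macrophage identity of both libraries was checked before the members were compared. All 10 macrophage markers were at 1 FPKM or more (fragments scaled by transcript length and library size). They summed to 15474 FPKM with anti-CD40 and 13121 FPKM with IgG. Most of each sum was Lyz2, with 13423 and 11326 FPKM, while Csf1r had 333 FPKM in both libraries. Of the 9 T and NK cell markers in the table, 6 were listed at 0 in both libraries, among them Cd3d, Cd3e, Cd3g and Cd8a, and their sum was 4.55 FPKM with anti-CD40 and 3.72 FPKM with IgG, mostly Cd4. The B cell factor Pax5 and the dendritic cell receptor Flt3 were also listed at 0 in both. Neutrophil markers summed to 1.97 FPKM with anti-CD40 and 1.25 FPKM with IgG, and B cell markers to 2.89 and 3.02 FPKM. Dendritic cell markers summed to 25.8 FPKM with anti-CD40 and 33.3 FPKM with IgG, nearly all of it Itgax and Batf3, which macrophages also express. Osteoclast markers summed to 102 FPKM with anti-CD40 and 106 FPKM with IgG, mostly Ctsk and Atp6v0d2, with Calcr listed at 0 in both. Erythroid and megakaryocyte markers summed to 29.2 FPKM with anti-CD40 and 26.2 FPKM with IgG, of which Pf4 made up 16.4 and 10.5 FPKM. Of the 5 at 1 FPKM or more, Pf4 and Ppbp were higher with anti-CD40, and Itga2b, Gp1bb and Hba-a1 were lower. Stromal and endothelial markers summed to 2.05 FPKM with anti-CD40 and 1.18 FPKM with IgG. The part of these markers in the results below was not tested. Steps in the deposited values imply about 6.16 gigabases of aligned sequence with anti-CD40 and 5.58 with IgG. In at least 1 library, 9591 genes reached 1 FPKM. If reads are taken as 150 bases, the median fragment number of these genes was near 412 for anti-CD40 and 332 for IgG.

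The 6 genes differed little between anti-CD40 and IgG. All 6 were above 1 FPKM in both libraries, 5 were slightly lower with anti-CD40 and Ifi207 was slightly higher. On the log2 scale of (FPKM + 1), which understates differences of low genes, their ratios of anti-CD40 over IgG lay between -0.21 and 0.13, with a median of -0.14. None was 1.5-fold or 2-fold apart on that scale, where 4.83% and 0.563% of the 9591 genes were. Genes lower with anti-CD40 made up 32.2% of the 9591 and genes higher with it 67.8%, whereas 5 of the 6 members were lower and 1 was higher. That share depends on the scale, since 49.5% of all genes were lower once ratios were centred on their median, and 49.97% after upper-quartile scaling. Of the 9591, 49.5% lay under the median log2 ratio, as did 5 of the 6 members. That median, 0.12, was taken over the genes that reached 1 FPKM in each library, and is a shift toward anti-CD40. Relative to that median, the members ran from -0.33 for Ifi203 to 0.01 for Ifi207. In all, 37.5% of the 9591 genes had ratios within the members' range, so the size of these differences is common in the table. In bulk RNA, fewer cells that express a gene and less of its RNA per cell cannot be told apart.

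**Figure D1:**
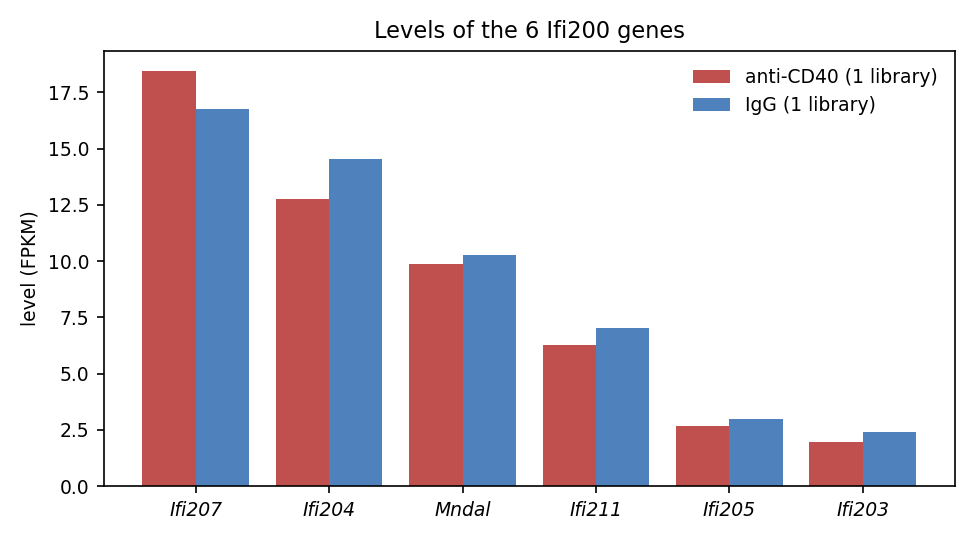
Levels of the 6 Ifi200 genes in FPKM (vertical axis), with 1 bar per library, anti-CD40 in red and IgG in blue. Ifi207 was highest, at 18.4 FPKM with anti-CD40 and 16.8 FPKM with IgG, and the order of the genes was the same in both libraries.

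Ifi204 encodes p204, a DNA sensor that acts upstream of STING in mouse macrophages and is regarded as a counterpart of human IFI16. It had 12.8 FPKM with anti-CD40 and 14.5 FPKM with IgG. The FPKM ratio of anti-CD40 over IgG was 0.877, with a 95% interval from 0.782 to 0.982. It rests on some 601 fragments in the anti-CD40 library and 621 in the IgG library. This and the following intervals of single genes are exact conditional binomial intervals on approximate fragment numbers. Intervals of sums were taken on fragments pooled over genes and rescaled to the ratio of the summed FPKM, so they are approximate. All of these intervals cover counting error only and not the spread between cultures. Ifi204 lay at percentile 15.3 of the log2 ratios of the 9591 genes.

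Ifi207, also called PYHIN-A, has been reported to act on the transcription of cytokine genes in mouse macrophages. It was the most abundant member per length in both libraries, with 18.4 FPKM with anti-CD40 and 16.8 FPKM with IgG. Its ratio was 1.10, with an interval from 1.01 to 1.20 on about 1243 and 1023 fragments. That ratio is close to 1.11, the median FPKM ratio over the genes that reached 1 FPKM in each library, and its log2 ratio was at percentile 51.0. The direction of Ifi207 depends on the scaling: its log2 ratio was 0.01 once centred on the median of all genes and -0.01 after upper-quartile scaling.

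Mndal encodes a nuclear protein that restrains growth of mouse cells. It had 9.89 FPKM with anti-CD40 and 10.3 FPKM with IgG, a ratio of 0.964 with an interval from 0.832 to 1.11. A difference of this size is not detectable at this depth. In the GENCODE annotation the Mndal gene model also overlaps Ifi211 and Ifi203 on the same strand. The RefSeq coordinates given above do not overlap. Each of the 34714 symbols of the table has a RefSeq gene, but the annotation behind the deposited values is not named. Whether RNA of these neighbours was counted toward Mndal was not tested.

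Ifi205 encodes p205, which in mouse macrophages controls expression of the inflammasome adaptor gene Pycard. It had 2.66 FPKM with anti-CD40 and 2.997 FPKM with IgG, a ratio of 0.886 with an interval from 0.652 to 1.20 on about 88 and 90 fragments. Pycard itself had 38.1 FPKM with anti-CD40 and 47.6 FPKM with IgG, a ratio of 0.801 with an interval from 0.762 to 0.841. Both genes of this pair were thus lower with anti-CD40, but the interval of Ifi205 reaches past 1, and a link between them was not tested.

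Ifi211, which is close in sequence to Ifi205, had 6.26 FPKM with anti-CD40 and 7.03 FPKM with IgG. Its ratio was 0.890, with an interval from 0.738 to 1.07. Ifi203 was the lowest member, at 1.95 FPKM with anti-CD40 and 2.40 FPKM with IgG. It had the lowest ratio of the 6, at 0.811, with an interval from 0.642 to 1.02 on about 144 and 161 fragments, and its log2 ratio lay at percentile 13.5. Counting intervals that leave out a ratio of 1 were thus those of Ifi204, below it, and Ifi207, above it. This depends on the scale. Set against 1.11, the median ratio of all genes, the intervals of Ifi203, Ifi204 and Ifi211 lay below it. Those of Ifi207 and Ifi205 took it in, and that of Mndal only just.

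**Figure D2:**
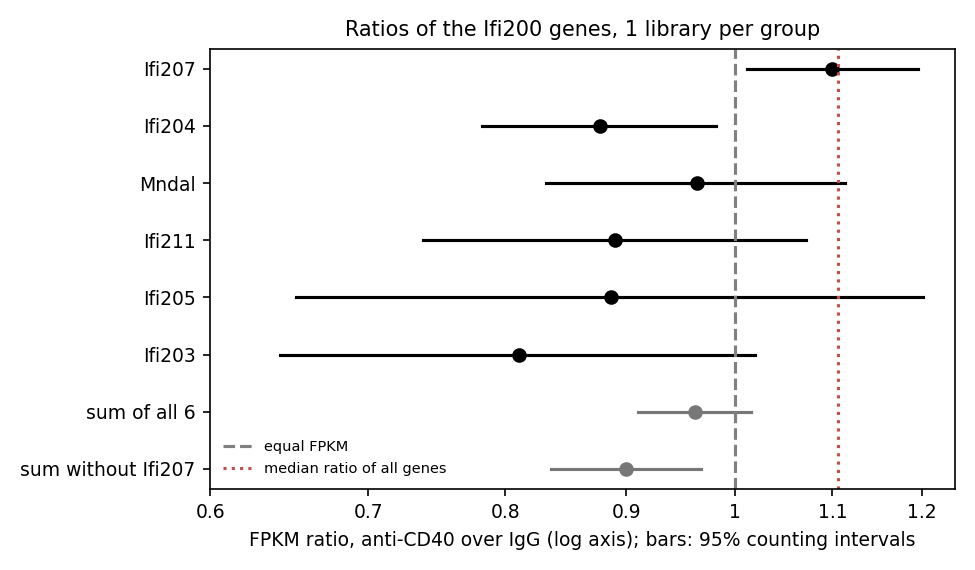
FPKM ratio of anti-CD40 over IgG on a log axis for each Ifi200 gene and for 2 sums, as points with 95% counting intervals as lines. The dashed line marks equal FPKM and the dotted line the median ratio of all genes, 1.11. Ifi207 lies at the dotted line, and the intervals of the sum without Ifi207, from 0.836 to 0.968, and of Ifi204 lie below the dashed line. That sum leaves out the only member higher with anti-CD40, which lowers its ratio by construction.

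Levels within the family spanned 9.45-fold with anti-CD40 and 6.97-fold with IgG between Ifi207 and Ifi203. The order of levels per length was Ifi207, Ifi204, Mndal, Ifi211, Ifi205 and Ifi203 in both libraries. With 1 library per group, neighbours in this order cannot be set against a replicate spread. Ifi207 made up 35.5% of the summed FPKM of the 6 with anti-CD40 and 31.0% with IgG, and Ifi204 24.6% and 26.9%. Mndal kept 19.0% in both, while Ifi211, Ifi205 and Ifi203 each took a slightly smaller share with anti-CD40. Among the 9591 genes, Ifi207 stood above 71.7% of levels in each library, whereas Ifi203 stood above 15.8% with anti-CD40 and 23.6% with IgG.

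How far a read can be assigned to a single member was examined in the GENCODE transcripts, since the sources used here do not say how reads that match several copies were handled. Of the distinct 150-base stretches of Ifi207, 0% occurred in a transcript of any other gene. The shares were 0.558% for Ifi203, 1.63% for Mndal and 10.8% for Ifi204, but 36.1% for Ifi205 and 46.4% for Ifi211. Ifi205 and Ifi211 shared 528 such stretches, and Ifi204 and Ifi211 shared 231. With 50-base stretches the shared part was 7.29% for Ifi207 and 72.8% for Ifi211. The separate values of Ifi205 and Ifi211 are therefore uncertain, and that of Ifi207 is the least exposed to exchange between copies.

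**Figure D3:**
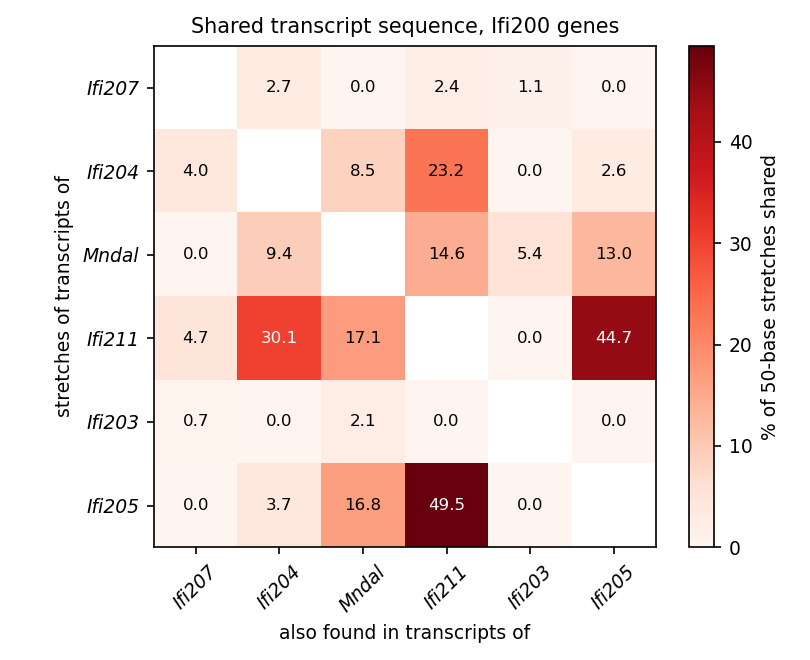
Percentage of distinct 50-base stretches of the basic GENCODE transcripts of each Ifi200 gene (rows) that also occur in transcripts of another member (columns), by colour and number. Ifi211 shares 44.7% of its stretches with Ifi205 and 30.1% with Ifi204, whereas Ifi207 shares at most 2.68% with any member.

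Sums over members depend less than single values on how shared reads were split among them. The 6 genes together had 51.9 FPKM with anti-CD40 and 54.0 FPKM with IgG, a ratio of 0.962 with an interval from 0.910 to 1.02. That interval takes in 1 but lies below 1.11, the median ratio of all genes. Ifi207, the member with the highest level, was left out in a second sum. It shares no 150-base stretch with the others. The sum of the remaining 5 was 33.5 FPKM with anti-CD40 and 37.2 FPKM with IgG. Its ratio was 0.900, with an interval from 0.836 to 0.968. Since Ifi207 was the only member higher with anti-CD40, leaving it out lowers the ratio by construction. Ifi207 offset the lower values of the other members within the sum of 6. Ifi205 and Ifi211 together had 8.92 FPKM with anti-CD40 and 10.0 FPKM with IgG, a ratio of 0.889 with an interval from 0.756 to 1.04.

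The remaining PYHIN genes of the table, 7 in number, lie on the same chromosome, and all 13 PYHIN genes fall within 682 kb. Of the 7, only Ifi202b lies within the 308 kb spanned by the members. Aim2, which assembles an inflammasome with Pycard on cytosolic DNA, had 6.68 FPKM with anti-CD40 and 6.85 FPKM with IgG, a ratio of 0.975 with an interval from 0.833 to 1.14. Ifi209 had 0.747 FPKM with anti-CD40 and 1.20 FPKM with IgG. It reached 1 FPKM with IgG alone, and its ratio was 0.621, with an interval from 0.431 to 0.896 on about 53 and 77 fragments. Ifi213 had 0.234 and 0.291 FPKM, Ifi206 0.0934 and 0.197 FPKM, and Ifi208 0.0394 and 0.082 FPKM with anti-CD40 and IgG in turn, too few fragments for a comparison. The table lists 0 for Ifi202b and Ifi214 with anti-CD40 and with IgG, and a 0 there may be an estimate that failed. Ifi202b is known to be barely expressed in C57BL/6 mice. All 13 PYHIN genes together had 59.7 FPKM with anti-CD40 and 62.6 FPKM with IgG, a ratio of 0.954 with an interval from 0.906 to 1.003.

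The same response element core was present at 4 of these 7 genes, Ifi206, Ifi208, Ifi213 and Ifi214, and absent from the windows of Aim2, Ifi209 and Ifi202b. The Aim2 window, at chr1:173420354-173420653, lies inside the gene, whose coordinates begin at chr1:173349547. The outermost start of Aim2 was therefore not searched. The stretch at Ifi213 (chr1:173599306-173599365, minus strand) is given for comparison with those of the 6 members, with the core in capitals.
Ifi213: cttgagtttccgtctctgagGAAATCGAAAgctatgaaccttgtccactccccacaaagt

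In these 4 genes the core overlapped a match to GAGGAA, the core of PU.1 sites, which 31.3% of genes and 0 of the 5 members with a window held. The core was thus found both at members above 1 FPKM and at genes near or at 0. Aim2, without it in the window searched, had a level near that of Ifi211. Over the whole table, 309 genes at 1 FPKM or more held the core and had a median log2 ratio of 0.12, equal to the 0.12 of 7555 genes without it. Of the 309 genes, 35.3% were lower with anti-CD40, and of those without the core 32.0%. This comparison was added after the members' promoters had been seen.

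**Figure D4:**
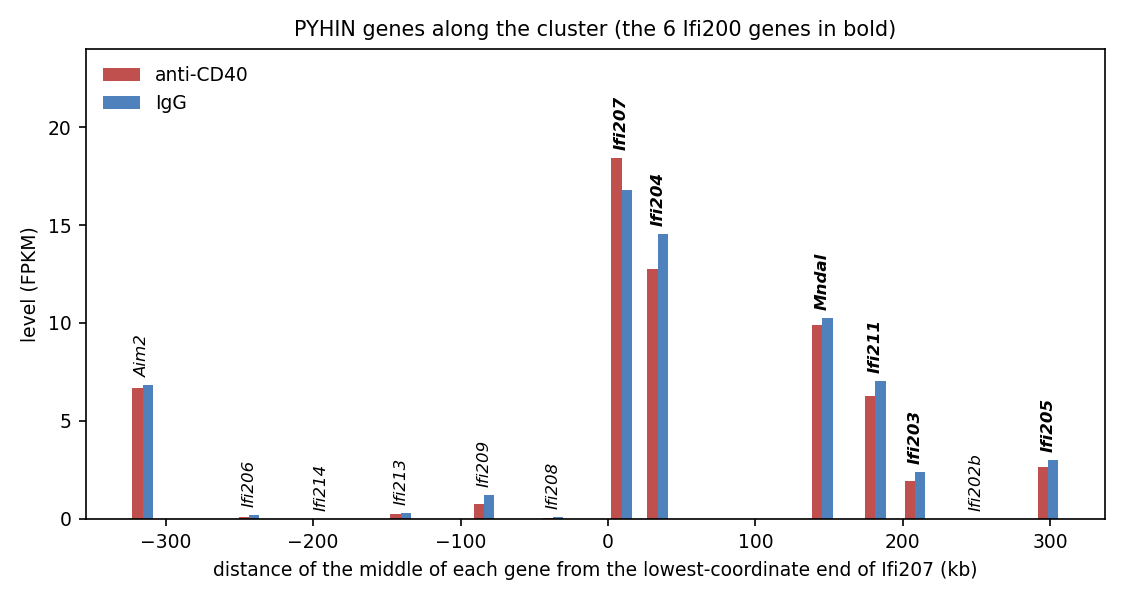
Level in FPKM of the 13 PYHIN genes (anti-CD40 red, IgG blue, 1 library each) at the distance in kb of each gene's middle from the lowest-coordinate end of Ifi207. The 6 Ifi200 genes, in bold, and Aim2 are above 1 FPKM in both libraries, and the genes between Aim2 and Ifi207 are near or at 0 except Ifi209.

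Outside the family, the neighbourhood was nearly silent. Within 500 kb of the outermost members, the table held 22 other genes, 14 of them olfactory receptors, and 20 were listed at 0 in both libraries. The highest value among them was 0.0255 FPKM. Of the 13 PYHIN genes, the 6 members and Aim2 were above 1 FPKM in both libraries.

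Genes that act with PYHIN proteins were compared in lists chosen with earlier results of these data known. DNA sensing and STING signalling had 25 genes at 1 FPKM or more, with a median log2 ratio of 0.06 against 0.12 over all genes. Of these, 13 were higher and 12 lower with anti-CD40, 16 lay under the median of all genes, and 0 were 1.5-fold apart in either direction. The shares over all genes were 67.8% higher, 32.2% lower, 49.5% under the median and 4.83% past 1.5-fold, and the counts of the lists that follow are to be read beside the same shares. Subunits of ribonuclease H2, which removes ribonucleotides from DNA, differed in direction: Rnaseh2b had 9.79 FPKM with anti-CD40 and 6.77 FPKM with IgG, while Rnaseh2a had 29.0 and 37.8 FPKM and Rnaseh2c 100.4 and 127.9 FPKM. Ifi35, an interferon-induced protein, had 49.4 FPKM with anti-CD40 and 73.1 FPKM with IgG, a ratio of 0.676 with an interval from 0.630 to 0.725.

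Inflammasome partners had 9 genes at 1 FPKM or more and a median log2 ratio of 0.14, with 6 higher, 3 lower and 4 under the median of all genes. At least 1.5-fold higher was 1 of the 9, against 2.68% of all genes, and none was as much lower. That gene was Il1b, an inflammasome substrate, with 13.6 FPKM with anti-CD40 and 4.0 FPKM with IgG. The sensor Nlrp3 had 6.93 FPKM with anti-CD40 and 4.98 FPKM with IgG, a ratio of 1.39 with an interval from 1.22 to 1.59. Caspase-8, encoded by Casp8, had 11.2 FPKM with anti-CD40 and 9.23 FPKM with IgG.

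Interferon genes and genes of interferon signalling, which induce PYHIN genes, were compared next. Of 21 interferon genes, 19 were listed at 0 in both libraries and none reached 1 FPKM. Interferon receptor and ISGF3 genes, including kinases and feedback inhibitors, had a median log2 ratio of 0.24 over 19 genes, with 15 higher, 4 lower and 7 under the median of all genes. Irf1, a transcription factor of the interferon response, had 21.2 FPKM with anti-CD40 and 12.6 FPKM with IgG, and the inhibitor Socs3 had 5.13 and 2.81 FPKM. Usp18, a negative regulator of interferon receptor signalling, had 2.49 FPKM with anti-CD40 and 3.95 FPKM with IgG.

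Interferon-stimulated genes, among which Ifi200 genes are usually counted, had a median log2 ratio of -0.09 over 56 genes, with 35 lower, 21 higher and 44 under the median of all genes. The 6 Ifi200 genes are not on that list. At least 1.5-fold lower were 4 of the 56, against 2.15% of all genes, and 1 was at least 1.5-fold higher. At least 2-fold lower were 2, against 0.313% of all genes, namely the oligoadenylate synthetase genes Oas1g, with 35.3 FPKM with anti-CD40 and 88.3 FPKM with IgG, and Oas1a, with 64.7 and 137 FPKM. Ifi27l2a had 100.6 FPKM with anti-CD40 and 191.8 FPKM with IgG, a ratio of 0.525 with an interval from 0.484 to 0.569. Bst2, which encodes the virus-tethering protein tetherin, had 309 FPKM with anti-CD40 and 193 FPKM with IgG. The median of the Ifi200 members, -0.14, lay near that of this list, but with 1 library per group the nearness was not tested.

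**Figure D5:**
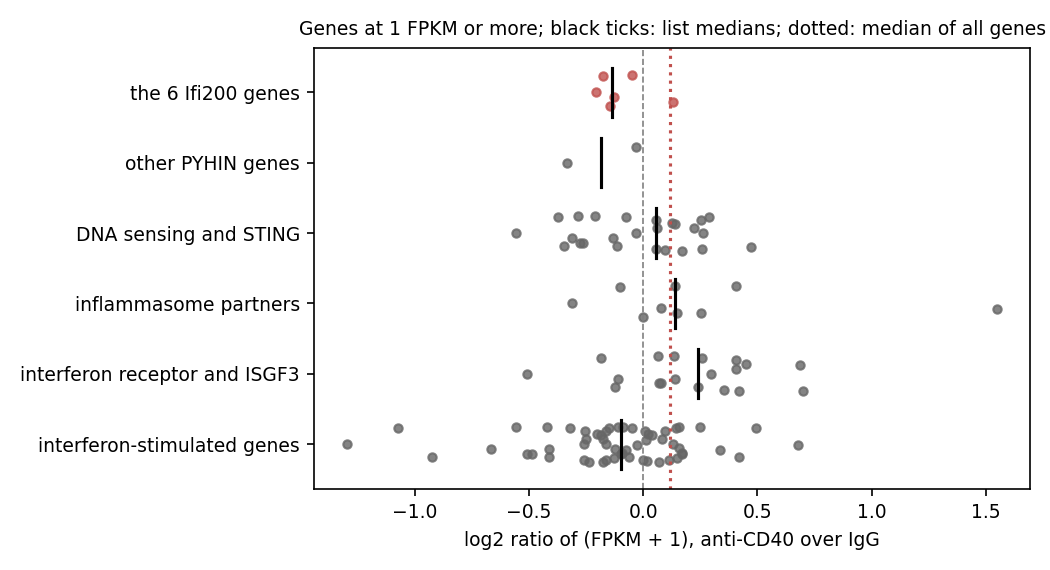
Log2 ratio of (FPKM + 1), anti-CD40 over IgG, for genes at 1 FPKM or more in each list; points are genes, black ticks list medians, the dashed line 0 and the dotted line the median of all genes, 0.12. The 6 Ifi200 genes (red) sit between -0.21 and 0.13, inside the wider range of interferon-stimulated genes, from -1.30 to 0.68.

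p204 is also known to bind the retinoblastoma protein and the Id proteins, inhibitors of differentiation, so these and other partners in growth and differentiation were listed. Their median log2 ratio was 0.14 over 18 genes, with 13 higher, 5 lower and 7 under the median of all genes, and 1 gene was 2-fold apart in each direction, against 0.25% of all genes higher and 0.313% lower. Id3 had 14.2 FPKM with anti-CD40 and 6.13 FPKM with IgG, a ratio of 2.32 with an interval from 1.90 to 2.82, and Id2 had 29.3 and 20.7 FPKM. Rb1, which encodes the retinoblastoma protein, had 0.674 FPKM with anti-CD40 and 2.68 FPKM with IgG, a ratio of 0.252 with an interval from 0.186 to 0.331. Ncl, the gene of the nucleolar protein nucleolin, had 28.2 FPKM with anti-CD40 and 40.0 FPKM with IgG.

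With 2 libraries, likeness of pattern means nearness of both levels. Nearest to Ifi207 by Euclidean distance in log2(FPKM + 1) over the 2 libraries were Snrpa1, Eif4a2 and Ubp1, at distances of 0.0019, 0.010 and 0.021. Nearest to Ifi204 were Plekhn1, Ak3 and Nubp1, at 0.0069, 0.012 and 0.015. Within a distance of 0.2 there were 217 genes for Ifi207 and 145 for Ifi204, so neither pattern sets its gene apart.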

How the data were processed

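RNA from the 2 cultures (1.3 ug per library, TruSeq preparation, per the labels' protocols) was sequenced, and the submitters' processing notes name HISAT2 2.1.0, StringTie and mm10. The sources used here give no annotation, strand setting or filter. The values the authors deposited, 1 per gene in each column, were read as FPKM. The header does not name the unit, which was inferred from StringTie and from unequal column totals, 529104 for anti-CD40 and 547362 for IgG. Columns were assigned by name, and 0 remained unused. Each of the 34714 symbols has a RefSeq gene in GRCm38.p6.

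Members and lists were chosen with earlier results of these data known. Named genes were the members, the other PYHIN genes, flanking genes at 1 FPKM or more, up to 4 genes per list with the largest log2 ratio either way, the 3 nearest genes to each of the 2 most abundant members, and Gapdh, Actb and B2m; of these, the ones bearing on the members are printed.

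The log2 ratio of (FPKM + 1) was used over genes at 1 FPKM or more in at least 1 library, with no test at 1 library per group. Depth came from the steps of FPKM times length in single-exon genes: 87.5% of 32 genes with anti-CD40 and 100% of 18 with IgG were whole multiples within 0.05 steps of 0.5 bases. Fragments were taken as 300 bases and lengths as the median of GENCODE M21 basic transcripts. All intervals rest on these readings. Promoters are RefSeq sequences of GRCm38.p6. Counting and intervals were tested on simulated data. Python 3.11.15, scipy 1.17.1, statsmodels 0.14.6 and Biopython 1.88 were used.

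Settings varied were the pseudocount (0.1 or 5 FPKM), centring of the log2 ratios on their median, rescaling to the mean of the sums or of the upper quartiles, no filter and a filter at 5 FPKM, shortest and longest transcripts, and the sum without the highest member; removing trends on GC content and length (lowess span 0.3) was added after seeing the data.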

Additional observations from a re-analysis of the deposited data

How the results depend on the processing

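No paired analysis was possible because each group had 1 library, which also left no replicate to leave out. The counts of 0 members past 1.5-fold and 2-fold held under every scaling, pseudocount and filter tried. The members' median log2 ratio of -0.14 became -0.26 both when centred on the median of all genes and after upper-quartile scaling, and the log2 ratio of the sum, -0.06 as deposited, became -0.17 and -0.20 in turn; both scalings take away the shift of all genes by construction. Rescaling to the mean of the sums went the other way, with -0.10 for the median and -0.01 for the sum, and a pseudocount of 5 FPKM gave a median of -0.08. The log2 ratio of the sum was -0.15 without the highest member, Ifi207, which was also the only member higher with anti-CD40. With a filter at 5 FPKM, which keeps 4 members, 3 were lower and 3 were under the median. All 6 members were under the median with a pseudocount of 0.1 FPKM, after upper-quartile scaling and with the GC and length trends removed. Members lower with anti-CD40 numbered 6 after upper-quartile scaling and 5 under the other scalings and pseudocounts and with the GC and length trends removed, while the share of all genes that were lower moved with the scaling, at 49.5% when centred, 27.2% after rescaling to the sums and 49.97% after upper-quartile scaling. Intervals with the shortest or longest transcript left out a ratio of 1 for Ifi204 and Ifi207, as with the median length.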

Other observations

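Other motifs were searched in the same promoter windows on both strands. Ifi203 and Mndal held the AP-1 motif TGANTCA, which 8.97% of genes held, and Ifi203 held a match to the NF-kB motif at its more upstream start, which 9.55% of genes held. Of the 5 members, Ifi205 held the TATA box letters TATAAA, on the opposite strand and after its start, and 15.7% of genes held them. Over the table, genes at 1 FPKM or more with the NF-kB motif had a median log2 ratio of 0.13 over 959 genes, and 6905 genes without it had 0.12; genes with the AP-1 motif had 0.14 over 476 genes, and 7388 genes without it had 0.12. Of genes often used as references, Actb had 1766 FPKM with anti-CD40 and 1813 FPKM with IgG, B2m 619 and 562 FPKM, and Gapdh 9.16 and 13.1 FPKM. Gapdh ranked only 4266 with anti-CD40 and 3230 with IgG, while Actb ranked 40 and 41. Whether the Gapdh values reflect its RNA level was not tested.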
